A study of Homo sapiens with 8 samples.

Results

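The comparison described here set SKBR3 cells given E2-BSA together with G15 against SKBR3 cells given E2-BSA alone, across 19775 genes. Its 2 arrays, 1 for each condition, come from a set of 8, and its values are the difference between them for every gene, averaged over all probe sets that carry a single gene name. SKBR3 is a human breast cancer line with amplified ERBB2 (HER2). It is generally regarded as negative for nuclear estrogen receptor alpha. On every array the cells had spent 4 h in serum stripped of steroids by charcoal, at 10% of the medium, before a treatment of 3 h. The comparison asks how transcript levels in the presence of E2-BSA differ when a GPER antagonist is added. The E2-BSA arm received E2-BSA at 1e-06 M, and the combination arm received E2-BSA at 1e-06 M with G15 at 1e-05 M. The other 6 arrays, used here as reference points, were untreated cells, ethanol at 0.1%, the carrier BSA at 1e-06 M, estradiol at 1e-06 M, G15 alone at 1e-05 M, and E2-BSA at 1e-06 M with ICI at 1e-05 M. The sources used here do not give the solvent of G15. Each condition is a single array, and the differences therefore come without replicate error and without a test.

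E2-BSA is estradiol coupled to bovine serum albumin, a form of the hormone widely used to reach receptors at the cell surface. GPER, encoded by GPER1, is a G protein-coupled receptor that binds estradiol and signals through cyclic AMP and through release of ligands of the EGF receptor, and G15 is a synthetic antagonist of it. The genes with the most negative differences belong in part to the BMP pathway, in which BMP ligands activate SMAD1, SMAD5 and SMAD9, and these switch on the ID genes and the pathway's own inhibitors. ID proteins lack a DNA-binding domain, bind basic helix-loop-helix factors and keep them from DNA.

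The values as deposited were taken to be on a log2 scale, although the sources used here do not state the base. They carry no absolute level: in no probe set did more than 4 of the 8 arrays exceed 0, nor did more than 4 fall below it, as in values centred probe set by probe set. Values of different genes therefore cannot be compared as levels, and the presence of a cell type's markers cannot be read from them. All values given for a gene below are in the order untreated, ethanol, BSA, estradiol, G15, E2-BSA, E2-BSA with ICI and E2-BSA with G15. A difference is the E2-BSA with G15 value minus the E2-BSA value, and a negative one means a lower value where G15 had been added. In RNA of whole cultures, fewer cells with a transcript and less of the transcript per cell cannot be told apart.

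Most genes differed little between the arrays. The difference was above 0 in 9132 genes, below 0 in 10216 and exactly 0 in 427, with a median of -0.0074 and an SD over genes of 0.186. For BSA minus untreated, a pair with neither hormone nor antagonist, the SD over genes was 0.166. At 2-fold, a difference of 1 or more in size, 6 genes were lower with G15 (0.0303% of all genes) and 3 were higher (0.0152%). At 1.5-fold, 71 genes were lower (0.359%) and 86 were higher (0.435%). The 6 genes lower at 2-fold were RAC3, ID1, KANK4, HOXC13, SOX9 and CCN2, and the 3 higher ones were CCDC186, FAM111B and KIF21A. Just inside the 2-fold limit lay CCN2 at -1.01 and KIF21A at 1.10. Just outside it lay PFKFB3 at -0.96 and, on the other side, TSGA13 at 0.93. At 1.5-fold, TNFRSF21 at -0.588 lay just inside and ID2 at -0.585 just outside among the lower genes, and PCGF1 at 0.585 inside and NPBWR1 at 0.583 outside among the higher ones.

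Among the BMP targets, ID1 stands beside BAMBI, and CCN2 (connective tissue growth factor) is a target of YAP and TEAD. The 250 bases before the RefSeq transcription start of these 3 genes are shown because their values separate the arrays in different ways below: ID1 was also low with free estradiol, whereas BAMBI and CCN2 were highest with ethanol. The sequences are from RefSeq on GRCh38.p14, read 5′ to 3′ on the gene's own strand, at chr20:31605039-31605288 (plus strand) for ID1, chr10:28677271-28677520 (plus strand) for BAMBI and chr6:131951373-131951622 (minus strand) for CCN2. Capitals mark matches, on either strand, to any of 5 motifs: GGCGCC, a core bound by BMP SMADs; GTCTAGAC, a palindromic SMAD box; GGAATG, the TEAD core; CACGTG, an E-box; and TATAAA, the TATA box.
ID1: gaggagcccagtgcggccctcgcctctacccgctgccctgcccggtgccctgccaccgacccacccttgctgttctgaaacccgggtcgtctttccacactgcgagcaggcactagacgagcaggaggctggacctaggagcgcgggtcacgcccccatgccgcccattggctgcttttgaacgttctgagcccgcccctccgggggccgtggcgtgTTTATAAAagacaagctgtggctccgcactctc
BAMBI: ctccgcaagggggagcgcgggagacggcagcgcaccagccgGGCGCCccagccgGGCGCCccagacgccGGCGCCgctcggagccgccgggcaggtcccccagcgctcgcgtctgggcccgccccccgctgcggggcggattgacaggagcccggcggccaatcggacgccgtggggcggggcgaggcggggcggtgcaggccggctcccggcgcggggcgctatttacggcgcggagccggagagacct
CCN2: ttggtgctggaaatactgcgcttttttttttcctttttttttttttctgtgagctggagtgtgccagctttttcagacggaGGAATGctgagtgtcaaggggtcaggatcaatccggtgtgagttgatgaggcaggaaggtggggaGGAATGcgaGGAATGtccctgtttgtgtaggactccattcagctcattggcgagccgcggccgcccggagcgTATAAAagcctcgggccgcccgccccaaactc
In the ID1 window the capitals are TATAAA and an overlapping match on the opposite strand, in BAMBI they are 3 copies of GGCGCC, and in CCN2 they are 3 copies of GGAATG and 1 TATAAA. Among all 35116 promoter windows of 250 bases, 16.4% held GGCGCC, 0.182% held GTCTAGAC, 11.9% held GGAATG, 6.34% held CACGTG and 10.7% held TATAAA. Of the 61 genes chosen for description, 46 had at least 1 window in the table. A match describes these letters only.

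Of all genes, only RAC3 had a more negative difference than ID1. Its values were 0.01, -0.34, 0.17, -2.02, 0.00, 0.04, -1.93 and -1.70, a difference of -1.74 (3.34-fold lower with G15). The low arrays were estradiol, E2-BSA with ICI and E2-BSA with G15, while E2-BSA alone and G15 alone lay at the level of the untreated cells. Against BSA, untreated cells and G15 alone, the combination was lower by a difference of -1.87, -1.71 and -1.70; these 3 comparisons and the one with E2-BSA share the combination array. ID4 followed, with the values 0.13, 0.25, 0.06, -0.70, 0.11, 0.14, -0.86 and -0.80 and a difference of -0.94. All 5 of its probe sets were lower with G15, by differences of -1.65 to -0.11 with a median of -0.84. ID3 stood at 0.00, 0.20, 0.18, -0.72, 0.08, 0.09, -0.56 and -0.71, a difference of -0.80. ID2 stood at 0.22, -0.02, 0.08, -1.24, 0.05, 0.00, -1.22 and -0.58, a difference of -0.58 that fell just short of 1.5-fold. All 4 ID genes were therefore lower with the combination than with E2-BSA alone, and in all 4 the estradiol and E2-BSA with ICI arrays were low as well.

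SMAD7, which encodes an inhibitory SMAD of the BMP and TGF-beta pathways, had the values -0.01, 0.35, 0.18, -0.61, 0.00, 0.22, -0.66 and -0.53, a difference of -0.75. BAMBI, a pseudoreceptor that dampens BMP and TGF-beta signalling, had the values 0.15, 1.49, 0.08, -0.23, 0.00, 0.23, -0.05 and -0.40, a difference of -0.62. SMAD7 followed the pattern of the ID genes, with low values on the arrays of estradiol, E2-BSA with ICI and E2-BSA with G15. In BAMBI the ethanol array stood high and the combination was the lowest of the 8. SMAD6, the other inhibitory SMAD, differed by -0.24 and NOG, an extracellular BMP antagonist, by 0.22. Over the whole list of BMP and ID targets, 15 of 18 measured genes lay below 0 and 3 above, with a median of -0.35. At 1.5-fold, 5 of the 18 were lower and 0 higher. Over all 19775 genes, 10216 lay below 0, with a median of -0.0074, and 0.359% were lower and 0.435% higher at 1.5-fold. A single probe set measured each of ID1, ID3, SMAD7 and BAMBI. Over the list's genes with several probe sets alone, which leaves these out but keeps ID4, the median was -0.19. This list was written with the difference in ID1 known, so its count is no independent evidence of direction. The list's median was -0.32 against BSA, -0.35 against untreated cells and -0.44 against G15 alone, which share the combination array. It was 0.05 for E2-BSA minus BSA, which shares the E2-BSA array with the comparison, and 0.05 for G15 alone minus untreated cells. Genes that encode the pathway's own ligands, receptors and SMADs differed little: of 17, 12 lay below 0 and 5 above, 0 reached 1.5-fold, and the median was -0.05. In the list of TGF-beta targets 13 of 15 lay below 0, with a median of -0.11 and 0 genes at 1.5-fold.

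**Figure D1:**
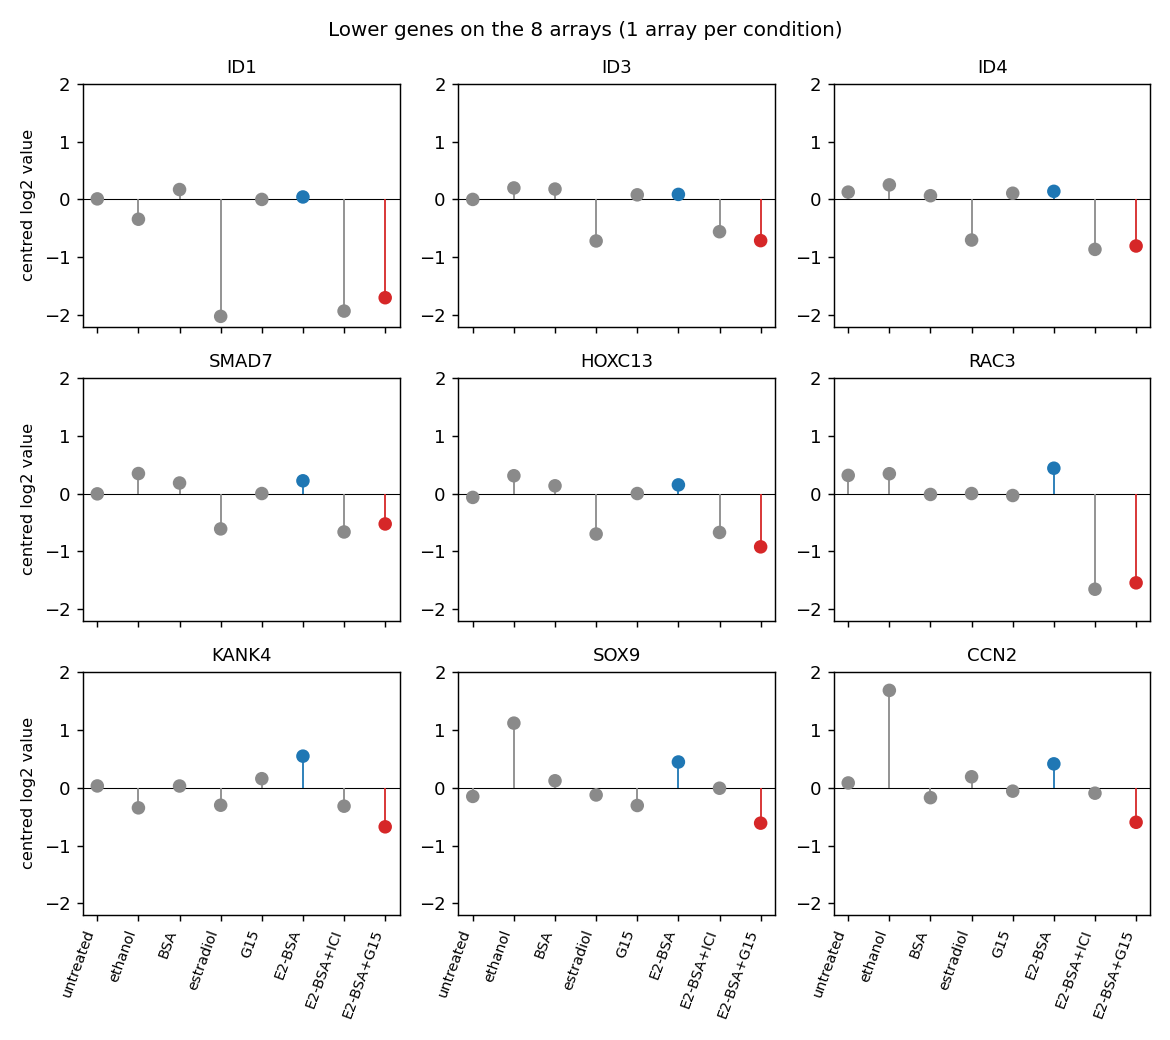
Deposited values, read as log2, of the lower genes on each of the 8 arrays, 1 array a condition. ID1, ID3, ID4 and SMAD7 are low on the arrays of estradiol, E2-BSA with ICI and E2-BSA with G15. SOX9 and CCN2 are highest on the ethanol array.

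Regulators of the actin cytoskeleton gave the lowest gene of all. RAC3, a Rac-type small GTPase that regulates actin, had the values 0.31, 0.34, -0.02, 0.00, -0.03, 0.44, -1.65 and -1.54, a difference of -1.98 (3.95-fold lower). Only the arrays of E2-BSA with ICI and of E2-BSA with G15 were low in RAC3, at -1.65 and -1.54. The other 6 lay between -0.03 and 0.44. A single probe set measured RAC3, and its paralogs RAC1 and RAC2 differed by 0.12 and 0.05. KANK4, of a family of ankyrin-repeat proteins that act on actin and adhesion, had the values 0.03, -0.35, 0.03, -0.30, 0.15, 0.54, -0.32 and -0.68, a difference of -1.22. In KANK4 the E2-BSA array was the highest of the 8 and the combination the lowest. KANK1, KANK2 and KANK3 differed by 0.10, -0.23 and 0.22.

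HOXC13, a homeobox factor of hair and nail, had the values -0.07, 0.31, 0.13, -0.70, 0.00, 0.15, -0.67 and -0.92, a difference of -1.07. Its estradiol and E2-BSA with ICI arrays were low too, and the combination was lowest. HOXC9, another gene of the cluster, had the values -0.22, 0.20, 0.16, -0.11, -0.42, 0.44, 0.13 and -0.27, a difference of -0.71; here the E2-BSA array was the highest of the 8, and the combination was not below the G15 array. Of 20 HOXC and other homeobox genes 15 lay below 0, with a median of -0.12. DLX1, DLX2 and DLX3, homeobox genes known to respond to BMP, differed by -0.55, -0.46 and -0.52, short of 1.5-fold.

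SOX9, a developmental transcription factor, had the values -0.15, 1.11, 0.12, -0.13, -0.31, 0.44, -0.01 and -0.61, a difference of -1.06, and its 2 probe sets gave -1.17 and -0.94. CCN2, a secreted matrix-associated protein and a known target of GPER signalling in breast cancer cells, had the values 0.08, 1.68, -0.17, 0.19, -0.06, 0.41, -0.10 and -0.60, a difference of -1.01. In both genes the ethanol array stood far above the rest, E2-BSA came second and the combination was lowest. Of 20 YAP and TEAD targets 16 lay below 0 and 3 above, and SOX9 and CCN2 were the only members at 1.5-fold. The list's median was -0.14. It was -0.04 against BSA, -0.07 against untreated cells and -0.02 against G15 alone, which share the combination array. For E2-BSA minus BSA, which shares the E2-BSA array, it was 0.16. SOX8, a relative of SOX9, lay on the other side with a difference of 0.61 and the values 0.00, -0.03, 0.25, 0.03, -0.01, -0.30, 0.39 and 0.31, where E2-BSA was the lowest array.

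Several lower genes stood apart on the combination array itself. IGFBP3, which binds insulin-like growth factors, had the values 0.13, 0.28, -0.13, 0.00, -0.09, 0.23, -0.08 and -0.69, a difference of -0.92, and its 2 probe sets gave -0.93 and -0.92. In IGFBP3 the combination minus the lowest of the other 7 arrays was -0.56, the widest such gap among the lower genes. HOOK2, a linker of microtubules, had the values -0.08, 0.12, 0.01, 0.01, 0.00, 0.10, -0.20 and -0.66. MSMB, a secreted protein first known from prostate, had the values -0.07, 0.10, -0.11, 0.00, 0.09, 0.10, 0.03 and -0.52. In both the combination was likewise far below the other 7 arrays, with differences of -0.76 and -0.61. The same held for the noncoding RNA PARTICL (-0.83), the collagen gene COL9A3 (-0.67), AHRR, a repressor of the aryl hydrocarbon receptor (-0.64), and HSD11B2, which inactivates cortisol (-0.61).

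Others were lower through several probe sets. PPP3R1, the regulatory subunit of calcineurin, differed by -0.78 and BCOR, a corepressor of BCL6, by -0.61 over 4 probe sets that lay between -0.81 and -0.52. STEAP4, a metalloreductase, differed by -0.73, the phosphate transporter SLC20A1 by -0.62, the DNA polymerase POLI by -0.62, and SYNPO2L by -0.60. In POLI and BCOR the E2-BSA array was the highest of the 8. Of all 71 genes lower at 1.5-fold, the combination was the lowest of the 8 arrays in 55 and E2-BSA the highest in 22, with both in 16 and neither in 10. Over all 19775 genes the combination was the lowest in 2253 and E2-BSA the highest in 2813. The median value of the 71 genes was -0.448 with the combination and 0.287 with E2-BSA, beside 0.325 with ethanol, -0.095 with E2-BSA and ICI and -0.038 with G15 alone. These genes were chosen by the values of those 2 arrays, so their positions describe them and test nothing.

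**Figure D2:**
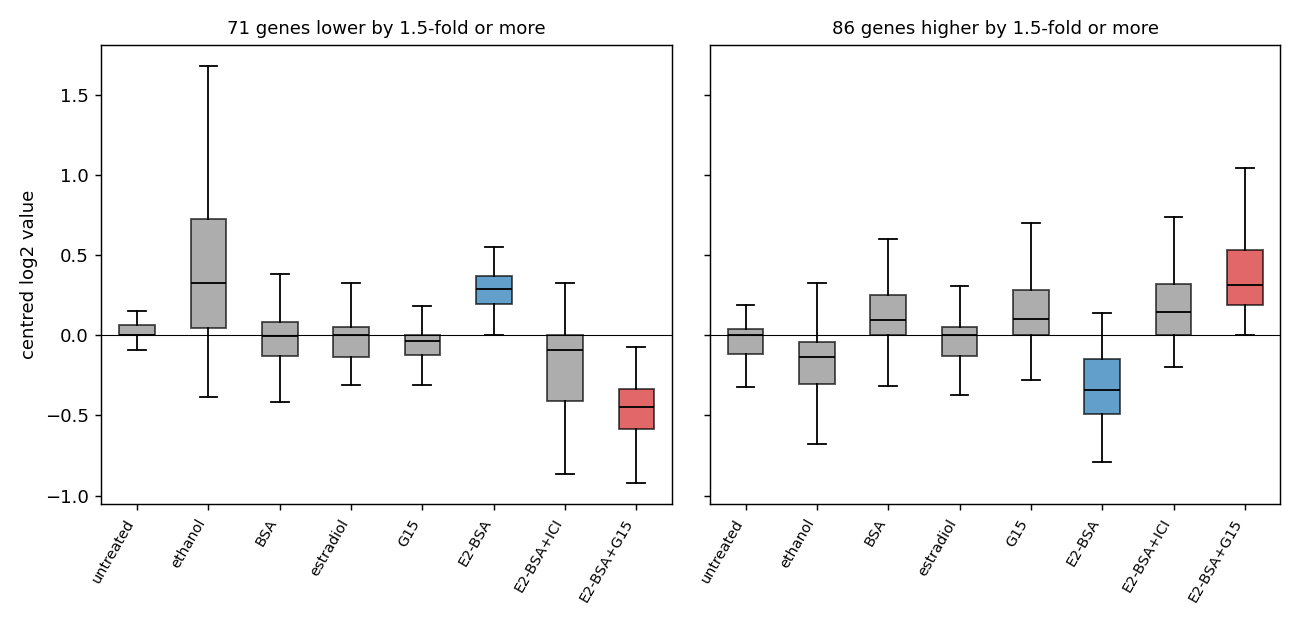
Distribution of the deposited values, read as log2, on each of the 8 arrays for the genes lower and the genes higher at 1.5-fold: lines are medians, boxes the middle quartiles, and whiskers reach the last gene within 1.5 box lengths, with genes beyond not drawn. Among the 71 lower genes the combination has a median of -0.448 and ethanol 0.325, and among the 86 higher genes E2-BSA has a median of -0.343 and the combination 0.313.

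The comparisons of ethanol, estradiol, G15 alone and BSA alone with untreated cells share no array with the one described. They all share the untreated array with each other. With ethanol, 22 of the 71 lower genes (31.0%) were higher at 1.5-fold, where 2.98% of all genes were, and these 22 were 3.74% of the genes higher with ethanol. None of the 86 higher genes was among them. They included HMOX1, CXCL11, CCN2, PFKFB3, BAMBI, CDKN1A, SOX9, STEAP4, AHRR and SYNPO2L. HMOX1, the heme oxygenase induced by oxidative stress, had the values 0.01, 2.20, 0.00, -0.21, 0.00, 0.28, -0.48 and -0.58, a difference of -0.87. CXCL11, a chemokine induced by interferon, had the values 0.22, 2.04, -0.09, 0.32, -0.22, 0.55, -0.03 and -0.33, a difference of -0.88, which was -1.51 after quantile normalization of the arrays. In both the ethanol array was more than 1 above every other, E2-BSA came second and the combination was lowest. PFKFB3, a regulator of glycolysis, had the values -0.10, 1.28, 0.00, -0.55, 0.07, 0.21, -0.52 and -0.76, a difference of -0.96. CDKN1A, the p21 inhibitor of cell cycle kinases, had the values -0.06, 1.26, 0.13, -0.71, 0.25, 0.00, -0.51 and -0.64, a difference of -0.64. In both genes the estradiol array was low as well, and in CDKN1A E2-BSA lay near untreated cells. Whether a solvent moved with these values was not tested.

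With estradiol, 8 of the 71 lower genes (11.3%) were lower at 1.5-fold against untreated cells, where 0.091% of all genes were, and these 8 were 44.4% of the genes lower with estradiol. Those were ID1, ID3, ID4, SMAD7, HOXC13, CDKN1A, IFIT1 and EDN2, the last an endothelin and the only one of the 8 outside the rule for named genes. Estradiol minus untreated was -2.03 in ID1, -0.83 in ID4, -0.72 in ID3, -0.61 in SMAD7 and -0.63 in HOXC13. None of the 86 higher genes was lower with estradiol at 1.5-fold. With G15 alone, 3 of the 71 lower genes (4.23%) were lower at 1.5-fold against untreated cells, where 0.167% of all genes were. They were LMNB1, PLPP3 and TUBA4A. In LMNB1 the untreated array was the highest of the 8, and ethanol and estradiol minus untreated were -0.69 and -0.57, beside -0.67 for G15. BSA minus untreated was -0.98 in PLPP3 and -0.05 in TUBA4A, beside -0.72 and -0.64 for G15. In ID1, ID3, ID4 and SMAD7 G15 alone differed from untreated cells by -0.01, 0.08, -0.02 and 0.01.

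**Figure D3:**
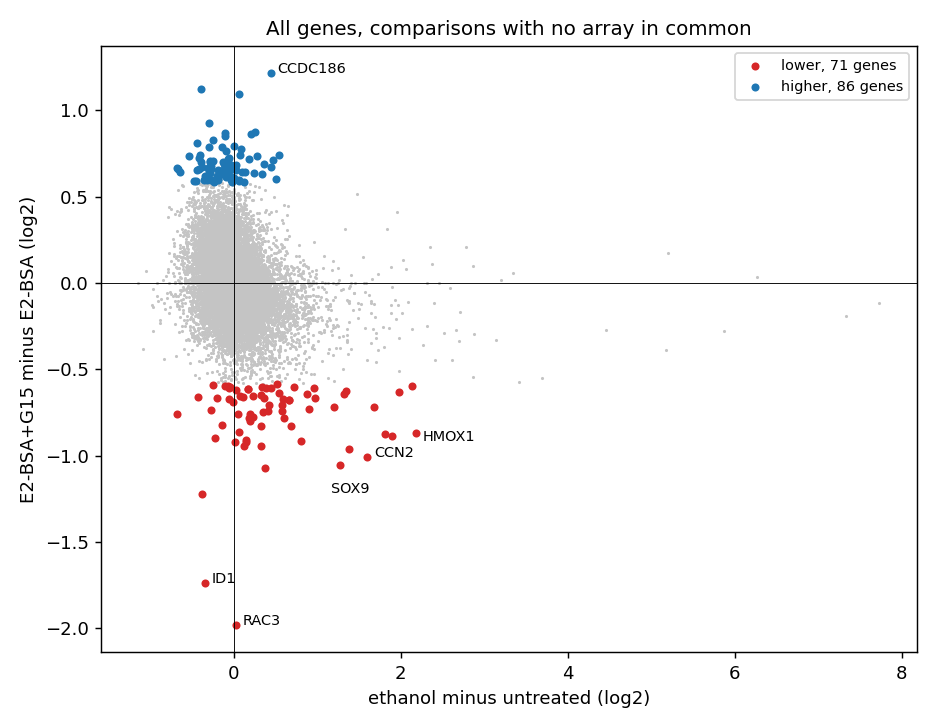
For each gene, the difference between E2-BSA with G15 and E2-BSA against the difference between ethanol and untreated cells, both log2, which share no array. Of the 71 genes lower at 1.5-fold with G15, 22 are higher at 1.5-fold with ethanol, and none of the 86 higher genes is.

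Several of the higher genes rested on 1 probe set among those of the gene. CCDC186, a coiled-coil protein of the secretory pathway, had the values -0.12, 0.32, 0.05, -0.10, 0.50, -0.10, 0.89 and 1.12, a difference of 1.21, but its 3 probe sets gave 0.14, 0.63 and 2.88. KIF21A, a kinesin, had the values -0.04, 0.03, 0.08, -0.22, 0.56, -0.06, 0.94 and 1.04, a difference of 1.10, from probe sets at -0.10 and 2.29. In both genes G15 alone and E2-BSA with ICI stood high too. FAM111B, a protease linked to DNA replication, was the only one of the 3 in which all probe sets were higher at 1.2-fold, at 0.78 and 1.47. Its values were 0.02, -0.36, 0.07, -0.20, 0.42, -0.20, 0.93 and 0.93, a difference of 1.12, with E2-BSA and ICI as high as the combination. At 1.2-fold, 6.27% of all genes were lower and 7.44% were higher.

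Among nuclear noncoding RNAs and genes on the same list, MALAT1, an abundant long noncoding RNA, had the values -0.32, -0.12, 1.04, -0.19, 0.65, -0.13, 0.84 and 0.73, a difference of 0.87. Its 12 probe sets ran from -0.99 to 3.17, with 9 above 0 and 8 higher at 1.5-fold. Without probe sets whose names end in _s_at, _x_at or _a_at the sign turned, at -0.985, a value from a single probe set. ESCO1, a cohesin acetyltransferase, differed by 0.87 with probe sets at -0.30, 1.02 and 1.90. MATR3, a nuclear matrix protein, had the values 0.00, -0.02, -0.05, 0.20, -0.28, 0.14, 0.38 and 0.73, a difference of 0.60; its G15 array was the lowest of the 8 and the combination the highest. Of the 14 members of this list 7 lay above 0 and 7 below, with these 3 higher at 1.5-fold and a median of 0.05.

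**Figure D4:**
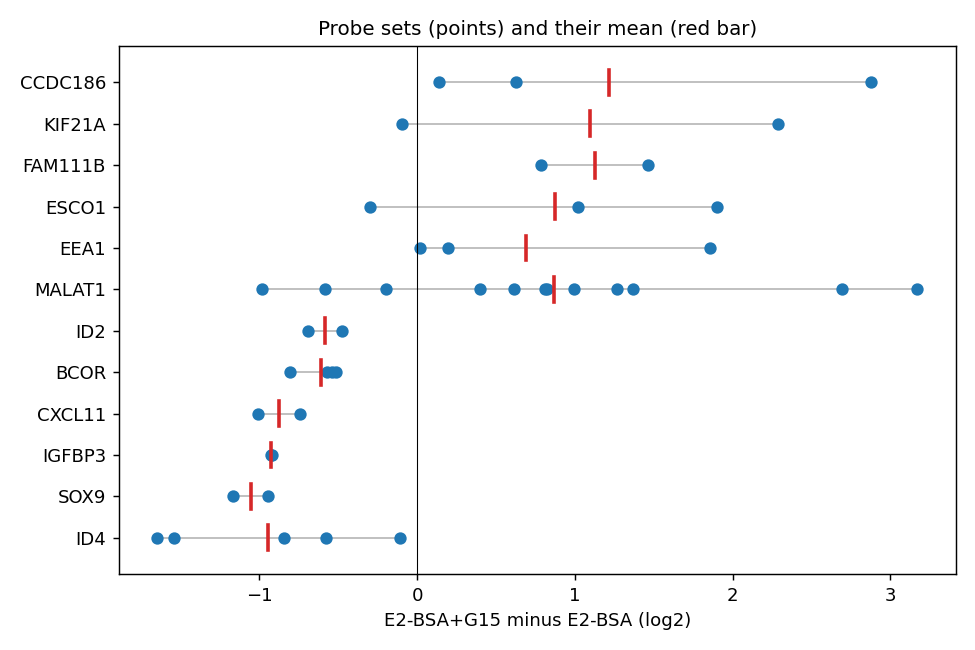
Differences of single probe sets, log2, E2-BSA with G15 minus E2-BSA, for a selection of the named genes with several probe sets. All 5 probe sets of ID4 lie below 0, from -1.65 to -0.11, whereas CCDC186, KIF21A, ESCO1 and MALAT1 spread from near or below 0 to 1.90 or more.

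Single probe sets showed the same spread. Of 41091 probe sets with 1 gene, 53 were higher at 2-fold (0.129%) and 25 lower (0.0608%). All 53 higher ones belonged to 48 genes with several probe sets, and the 133 other probe sets of those genes had a median of -0.038, with 10 at 1.5-fold higher. In G15 alone minus untreated cells, 37 of the 53 were higher at 1.5-fold, where 0.767% of all probe sets were, and in BSA minus untreated cells 24 were, where 0.964% were. The median value of the 53 was 1.14 with the combination, 1.30 with E2-BSA and ICI, 0.703 with G15 alone, 0.312 with BSA, -0.154 untreated and -0.234 with E2-BSA. Among the 25 lower probe sets 20 belonged to 18 genes with several, whose 40 other probe sets had a median of -0.133. In G15 alone minus untreated cells, 8 of the 25 were lower at 1.5-fold, where 0.788% of all probe sets were. In BSA minus untreated cells 8 were, where 0.764% were.

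For whole genes, 8 of the 86 higher ones (9.30%) were higher at 1.5-fold with G15 alone, where 0.364% of all genes were, and they included CCDC186, KIF21A, MALAT1 and PCGF1. With BSA alone 10 of the 86 (11.6%) were higher at 1.5-fold, where 0.354% of all genes were, and they included IFI27, IFI6, VAMP2, APPL2, MALAT1 and PCGF1. The 2 counts share the untreated array, and ACTN4, LMTK3, MALAT1, MIF-AS1 and PCGF1 were in both. Untreated cells had the lowest value of the 8 arrays in CCDC186, IFI6, APPL2, MALAT1 and PCGF1, but not in KIF21A, IFI27 or VAMP2. PCGF1, a Polycomb subunit, had the values -0.32, -0.20, 0.46, -0.10, 0.45, -0.13, 0.33 and 0.45 and a difference of 0.59, with both probe sets at 0.59. In PCGF1 the BSA, G15 and combination arrays lay together, above E2-BSA and untreated cells. VAMP2, a vesicle SNARE protein, had the values -0.20, -0.14, 0.51, -0.04, 0.21, -0.27, 0.01 and 0.33, a difference of 0.60, and BSA was its highest array. The focal adhesion protein zyxin (ZYX, 0.53), the glucosidase subunit PRKCSH (0.53) and the SNARE adaptor NAPA (0.53) also stood high with BSA, at 0.48, 0.51 and 0.39.

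The combination array stood highest by itself in other genes. YWHAE, the 14-3-3 protein epsilon, had the values -0.16, -0.32, 0.42, -0.21, 0.40, 0.08, 0.15 and 0.71, a difference of 0.63 from probe sets at 0.49 and 0.77. APPL2, an adaptor of early endosomes, had the values -0.50, -0.06, 0.19, -0.23, 0.00, 0.00, 0.20 and 0.67, a difference of 0.67. EEA1, which tethers early endosomes, differed by 0.69, but its 3 probe sets gave 0.02, 0.19 and 1.86. PLCB4, a phospholipase C activated by G proteins, differed by 0.62 from probe sets at 0.18 and 1.06. The pseudogene HLA-DPB2 (0.71) and the noncoding RNA PELATON (0.60) were highest with the combination as well. In TRABD2A (0.58), EFNB3 (0.54), an ephrin ligand, TSHZ3 (0.61), a zinc finger factor, and DAOA (0.50), E2-BSA was the lowest of the 8 arrays. Of the 86 higher genes the combination was the highest of the 8 arrays in 45, E2-BSA the lowest in 56, both in 27 and neither in 12. Over all 19775 genes the combination was the highest in 1639 and E2-BSA the lowest in 2682, and the 86 genes were chosen by the values of those arrays. A single probe set measured 77.9% of the 86 and 77.5% of the 71 lower genes, where 46.8% of all genes have only 1. Where there were several, all probe sets had the gene's direction in 10 of 19 higher and in 16 of 16 lower genes. Among all 10523 genes with several probe sets, all lay in one direction in 3905.

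Interferon-stimulated genes went both ways. IFIT1, an RNA-binding antiviral protein, had the values 0.00, 0.15, 0.21, -1.25, -0.48, 0.34, -1.56 and -0.57, a difference of -0.91, with the estradiol and E2-BSA with ICI arrays lower still. SAMD9 differed by -0.67, and by -1.19 after quantile normalization. On the other side IFI27 had the values -0.37, 0.10, 0.88, -0.24, 0.00, -0.40, -0.50 and 0.31, a difference of 0.71, and IFI6 the values -0.27, 0.09, 0.60, -0.22, -0.10, -0.23, 0.00 and 0.46, a difference of 0.69. In IFI27 and IFI6 the BSA array was the highest, so that the combination was below BSA by a difference of -0.57 and -0.14. Of 24 listed genes 16 lay below 0 and 8 above, with 2 at 1.5-fold each way and a median of -0.14.

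The receptors themselves differed little as gene means. GPER1 differed by -0.20 and its combination value of -0.28 was the lowest of 8, but its 2 probe sets disagreed, at -0.73 and 0.34. ESR1, the nuclear estrogen receptor alpha, differed by 0.13, ESR2 by -0.02 and ERBB2 by -0.07. Among 20 genes linked to GPER signalling CCN2 was the only one at 1.5-fold, with 11 below 0, 9 above and a median of -0.04. Of 19 targets of the nuclear estrogen receptors 0 reached 1.5-fold, with TFF1 at 0.44, NRIP1 at -0.42 and a median of -0.03. Immediate early genes, which GPER is known to induce, had a median of -0.09 over 27 genes and 0 at 1.5-fold, with FOSB at 0.41, FOSL1 at 0.39, EGR1 at 0.31 and JUNB at -0.27. Feedback regulators of ERK had a median of -0.14, with 12 of 15 below 0, and genes of the cyclic AMP response 0.03, with 8 of 13 above. The median of the ERK list was -0.06 against BSA and 0.01 against G15 alone, and 0.08 for E2-BSA minus BSA.

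**Figure D5:**
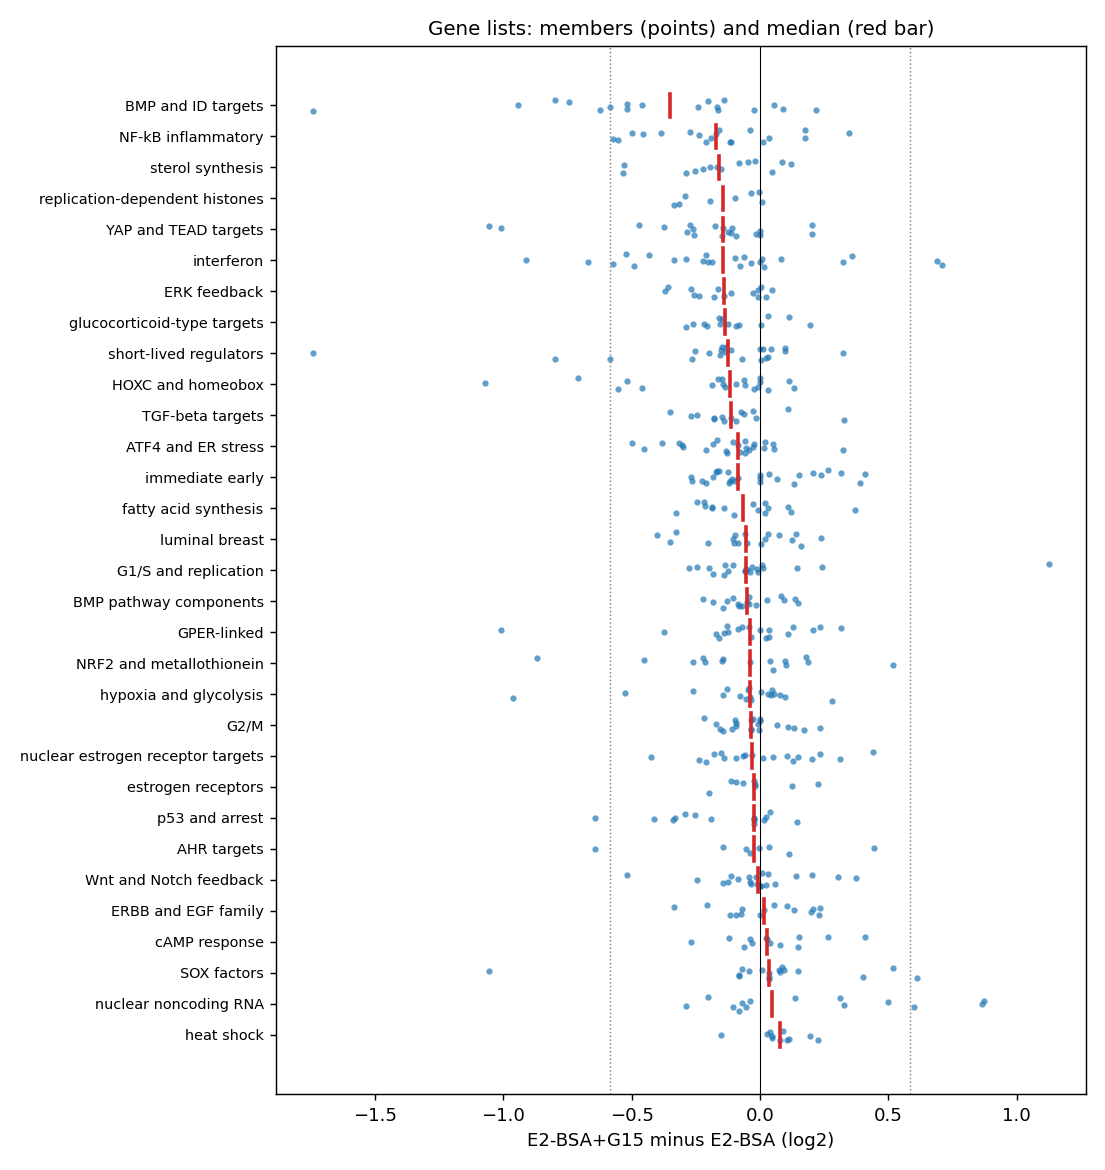
Differences of the members of each gene list, log2, E2-BSA with G15 minus E2-BSA, with the list's median. The BMP and ID targets have the lowest median, at -0.35, and the heat shock list the highest among the pathway lists shown, at 0.08.

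Marker lists were looked at for all 8 arrays as a check on the cells. Breast epithelial markers, ERBB2 and keratins among them, had 6 of 9 genes above 0 and a median of 0.03. Immune markers had 6 of 8 above 0 (median 0.08), fibroblast markers 5 of 8 (0.02), and endothelial markers 4 of 8. No marker of these 4 lists reached 1.5-fold, and the medians of the lists lay between -0.098 and 0.083 on each array. Since the values carry no level, whether these markers are expressed was not tested, and the labelled cell line was taken as given.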

How the data were processed

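Transcript levels were measured on 8 Affymetrix arrays of 54675 probe sets, 1 a condition. The values deposited by the authors in the series' value table were read as log2; the sources used here do not give the summarization of probes, normalization, software or log base. Of the probe sets, 41091 carried 1 gene in the platform annotation (41037 matched a current record) and were used; 1801 with several genes, 11721 with none and 62 controls were not. Probe sets of a gene were averaged without a filter. They share the RNA of 1 array and are no replicates. With 1 array a side, genes were counted by fold (2, 1.5 or 1.2) and no test was made; the number of arrays limits the precision. On the combination array 24.5% of probe sets held an exact 0, on the E2-BSA array 19.5%, and on both 4.47%. No genome position is given beyond the promoter windows.

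The 61 named genes were all genes at 2-fold; up to 12 in each direction with the largest difference among those with 2 or more probe sets that all differed that way by 1.2-fold; up to 8 in each direction, at 1.5-fold, whose combination value lay farthest beyond the other 7 arrays; list members at 1.5-fold; the ID genes, GPER1, ESR1, ESR2 and ERBB2. A gene with a provisional name is counted only, and 1 list and 1 gene are not reported here. List members below 1.5-fold, and the genes of the comparisons that share no array, were chosen after their values were seen. The members, the 32 pathway lists and the 4 marker lists were chosen with earlier results of these data known. Scaling, the summary of probe sets and their selection were varied in 7 alternatives. The scripts (Python 3.11.15, pandas 2.3.3, numpy 2.4.6, R 4.3.3 with limma 3.58.1 for quantile normalization) were tested on simulated data.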

Additional observations from a re-analysis of the deposited data

Results flagged for a closer look

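In 3 named genes G15 went with a difference of one sign in the presence of E2-BSA and of the other sign without it, both larger in size than the SD over genes of BSA minus untreated (0.166). Other named genes also had opposite signs, with a smaller difference in at least 1 of the comparisons. PFKFB3 was lower with G15 beside E2-BSA (-0.96) and higher with G15 alone against untreated cells (0.17), and the first minus the second was -1.13. CDKN1A was likewise at -0.64 and 0.31, which differ by -0.951. MATR3 was at 0.60 beside E2-BSA and -0.28 alone, which differ by 0.877. Each value is 1 array minus another, and the difference between the values was not tested.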

How the results depend on the processing

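No paired analysis was possible because each condition has 1 array. The number of genes depended on the scaling and on the summary of probe sets. Quantile normalization gave 6 genes higher and 18 lower at 2-fold, and 148 higher and 148 lower at 1.5-fold, where the deposited values gave 3, 6, 86 and 71. The probe set with the largest SD for each gene gave 47 higher and 23 lower at 2-fold, and 289 and 298 at 1.5-fold. Genes with several probe sets alone kept CCDC186, FAM111B and KIF21A higher at 2-fold and gave 1 lower, SOX9. At 1.5-fold they gave 19 higher and 16 lower, by construction among fewer genes. Median centring of each array, the median of probe sets, and leaving out probe sets at 0 on both arrays kept all 4 counts within 1.5 times. So did leaving out probe sets whose names end in _s_at, _x_at or _a_at. With the last of these, MALAT1 turned to -0.985, from a single probe set, and the median of the NRF2 and metallothionein list moved to 0.137. The cause was not tested. Among the values of named genes under the alternatives, 346 moved by less than the SD over genes of BSA minus untreated (0.166), 39 by more, and 1, that of MALAT1, turned past 1.5-fold. Among the 39, ESR2 went from -0.02 to 0.19 with the probe set of largest SD. Quantile normalization moved CXCL11 to -1.51 and SAMD9 to -1.19. Without probe sets ending in _s_at, _x_at or _a_at, VAMP2 was at 0.37 and DAOA at 0.29. CCDC186 was at 0.63 by the median of its probe sets and 2.88 by the one with the largest SD, and GPER1 was at -0.73 by the latter. That list apart, all 250 list medians computed under the alternatives moved by less than that spread. Without replicates, the error of a single gene's difference is unknown.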

Other observations

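The lists not described above had medians between -0.17 and 0.08, beside -0.0074 over all genes. Of 19 inflammatory NF-kB targets 14 lay below 0, with a median of -0.17. They included the chemokine CCL2 (-0.57), the transcription factor IRF1 (-0.55), the NF-kB inhibitors NFKBIA (-0.50) and TNFAIP3 (-0.39), and RELB (-0.46), whereas TRAF1 was at 0.35. Of 14 genes of sterol synthesis 11 lay below 0, with a median of -0.16, among them INSIG1 (-0.53), which retains the sterol sensor in the endoplasmic reticulum, and HMGCS1 (-0.53), an early enzyme of the pathway. Fatty acid synthesis had 10 of 16 below 0 and a median of -0.07. Among 25 genes of the ATF4 and endoplasmic reticulum stress response 20 lay below 0, with DDIT4, an inhibitor of mTORC1, at -0.50, SLC7A11, the cystine transporter, at -0.45 and a median of -0.09. Heat shock genes lay on the other side, 10 of 11 above 0 with a median of 0.08 and HSPD1, the mitochondrial chaperone, at 0.23. None of these 5 lists held a gene at 1.5-fold. In the order named, their medians were -0.06, -0.04, 0.03, 0.002 and 0.25 against BSA, which shares the combination array. For E2-BSA minus BSA, which shares the E2-BSA array, they were 0.07, 0.12, 0.10, 0.11 and 0.16.

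Of 14 glucocorticoid-type targets 10 lay below 0 (median -0.14), and of 8 replication-dependent histones 7 did (-0.15), with H1-2 at -0.34. Against BSA these medians were -0.04 and -0.05, and for E2-BSA minus BSA they were 0.09 and 0.07. H2BC11, a histone gene outside that list and named after its value was seen, differed by -0.66. Replication genes had 16 of 21 below 0 and a median of -0.05, with FAM111B the only member at 1.5-fold, and G2/M genes had 14 of 21 and -0.04. The lists of hypoxia and glycolysis (median -0.04, PFKFB3 at 1.5-fold), p53 targets (-0.02, CDKN1A), NRF2 targets and metallothioneins (-0.04, HMOX1) and AHR targets (-0.02, AHRR) each held 1 lower gene at 1.5-fold. In the NRF2 list SOD2, the mitochondrial superoxide dismutase, was at 0.52. Short-lived regulators had a median of -0.12 (-0.01 without probe sets ending in _s_at, _x_at or _a_at), and the 2 of 22 at 1.5-fold were ID1 and ID3. Wnt and Notch feedback genes had a median of -0.01, with HEY1, a Notch and BMP target, at -0.52 and AXIN2, a Wnt target, at 0.37. Medians were 0.04 for SOX factors, 0.02 for the ERBB and EGF family, -0.05 for luminal breast genes and -0.02 for the estrogen receptors and their relatives.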
